A study of Mus musculus with 12 samples.

Results

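Genes of cholesterol and fatty acid synthesis were followed in primary cultures of mouse Kupffer cells, macrophages that reside in the liver. The group held 32 listed genes, chosen by symbol for their roles in these pathways, with earlier results of these data known. A probe with the symbol was found for 29 of the 32 genes, and Acat2, Mvk and Fdft1 had none. A probe was used where its detection p, a measure of its signal against that array's negative controls, was under 0.05 on at least 2 of the 12 arrays. This left 24 of the 32 genes, among 10255 genes tested in all. The probes of Idi1, Sc5d, Elovl6 and Fads2 were detected on 0 arrays and that of Fasn, fatty acid synthase, on 1 array, so these 5 genes have no values below. Of the 24, 20 were detected on all 12 arrays, Nsdhl on 10, Tm7sf2 on 8, Stard4 on 5 and Scd2 on 2.

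Cholesterol is built from acetyl-CoA through the mevalonate pathway to squalene, which is closed into a ring and then trimmed to cholesterol. Fatty acids start from the same acetyl-CoA and are afterwards elongated and desaturated. SREBP transcription factors switch on both sets of enzymes when membranes are short of sterol, SCAP escorts SREBP out of the endoplasmic reticulum, and INSIG proteins hold the complex back there. In macrophages, sterol and fatty acid metabolism is known to shift with activation.

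All cells came from male C57BL/6 mice aged 8 weeks, by collagenase perfusion of the liver and a Percoll gradient, and RNA was hybridised to 12 Illumina bead arrays, 2 in each of 6 groups. The M0 group was the control for LPS, a bacterial lipopolysaccharide given at 10 ng/ml and labelled M1, and for interleukin 4 (IL-4), given at 20 ng/ml and labelled M2. The vehicle group received the solvent DMSO and was the control for SR3335, a ligand known to lower the activity of the receptor ROR alpha, and for SR1078, a ligand known to raise that of ROR alpha and ROR gamma. The labels print a dose of 10 mM for SR3335 and of 5 mM for SR1078, units that are in doubt here, and 24 h for every treatment. They give no time for M0. The labels leave unsaid whether replicate arrays hold RNA of different cultures or mice, so the p-values measure the spread between arrays, which may be technical.

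The M0, LPS and IL-4 arrays formed one array set and the vehicle, SR3335 and SR1078 arrays another, with median signals of undetected probes of 147 to 154 and of 88.9 to 99.1. Comparisons were made within a set. Between 44.7% and 49.1% of the 25697 probes were detected per array, and arrays of a group correlated at 0.992 to 0.997 across genes. Of the 12 Kupffer cell and macrophage markers 9 were measured, among them Clec4f, Vsig4 and the C1q genes on all 12 arrays, while Cd5l was undetected on all 12. Markers of other cell types were detected too. Of 12 hepatocyte markers 9 were measured, and Alb, Fgb and Cps1 were undetected on every array. The measured ones had mean log2 signals from 5.37 (Cyp2e1) to 12.18 (Trf) in M0. With vehicle the means ran from 6.61 (Hnf4a) to 11.95 (Serpina1b). Because the cells were measured in bulk, fewer cells of a type and less RNA per cell cannot be told apart.

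The sequences just upstream of 5 sterol enzyme genes are shown because each of these genes was called in at least 1 comparison below. Each is the 150 bases before the gene start in RefSeq's GRCm38.p6, 5′ to 3′ on the gene's strand. Capitals mark TCACNCCAC (the core of a sterol regulatory element), CCAAT (the NF-Y box, read ATTGG on the other strand) and GGGCGG (the Sp1 box, read CCGCCC on the other strand). Hmgcs1 lies at chr13:119690201-119690350 on the plus strand, Mvd at chr8:122443423-122443572 on the minus strand and Lss at chr10:76531455-76531604 on the plus strand. Cyp51 lies at chr5:4104698-4104847 on the minus strand. Dhcr7, for which RefSeq's table has 3 entries and the one with the most CCAAT boxes is shown, lies at chr7:143830064-143830213 on the plus strand.
Hmgcs1: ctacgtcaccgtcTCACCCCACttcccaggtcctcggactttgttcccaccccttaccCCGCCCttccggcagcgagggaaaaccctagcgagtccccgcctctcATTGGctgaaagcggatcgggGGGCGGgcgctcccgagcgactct
Mvd: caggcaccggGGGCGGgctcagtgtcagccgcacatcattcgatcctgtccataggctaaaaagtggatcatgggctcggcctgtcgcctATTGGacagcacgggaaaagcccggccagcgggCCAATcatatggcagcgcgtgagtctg
Lss: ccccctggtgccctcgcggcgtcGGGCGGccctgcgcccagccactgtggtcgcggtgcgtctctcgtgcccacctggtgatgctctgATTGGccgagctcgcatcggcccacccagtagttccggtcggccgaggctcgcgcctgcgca
Cyp51: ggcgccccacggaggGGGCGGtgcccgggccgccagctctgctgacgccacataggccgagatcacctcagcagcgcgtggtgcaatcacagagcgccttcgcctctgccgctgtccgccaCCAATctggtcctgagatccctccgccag
Dhcr7: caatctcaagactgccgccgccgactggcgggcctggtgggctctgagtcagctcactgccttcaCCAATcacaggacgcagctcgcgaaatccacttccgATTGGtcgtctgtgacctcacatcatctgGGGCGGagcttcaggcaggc

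The stretches of Hmgcs1, Mvd, Lss and Cyp51 each held at least 1 CCAAT box and at least 1 GGGCGG box. So did that of Dhcr7, which was picked for its CCAAT boxes. In the wider windows described next, the other 2 Dhcr7 entries held 0 CCAAT boxes, and 1 of the 2 held a GGGCGG box. TCACNCCAC was found in Hmgcs1, at position -137 from the start. In windows from 250 bases before to 50 bases after the start, searched on both strands with overlaps allowed, CCAAT was present in 21 of the 26 listed genes with an entry (80.8%) and in 41.1% of all 27025 genes of the table. Counted by entry, the shares were 64.7% of 34 and 37.4% of 32851. Among genes measured here the shares were 17 of 19 members (89.5%) and 43.1% of 7724 genes. GGGCGG was present in 16 of the 19 measured members (84.2%) against 65.8% of those 7724 genes. TCACNCCAC was found in 1 of the 26 genes, Hmgcs1, against 1.44% of all genes. These are matches of letters and show no binding. Fdps, Sqle, Stard4, Scd2 and Fads1 had no entry in the table.

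The first question was how the pathway stood in LPS-treated cells against M0 cells. Of 12 measured sterol enzymes 5 fell, 1 rose and 6 did not pass. Sqle was 2.52-fold lower, Dhcr7 2.10-fold lower and Cyp51 1.72-fold lower. Scap, the escort of SREBP, was 1.68-fold lower and Fdps 1.495-fold lower. Mvd was 1.54-fold higher, the opposite way. In all, 1 of the 24 measured members rose and 7 fell at an adjusted p under 0.05 (limma, Benjamini-Hochberg over all 10255 genes), where 13.5% of all genes rose and 16.9% fell. The median difference of the 24 members was -0.26 log2 against -0.03 for all genes, and 18 of the 24 had a negative difference. With arrays centred on their medians in place of quantile normalisation, all genes shifted by a median of -0.13 and members by -0.39, 12 members fell, and the split over all genes moved from 1381 higher and 1729 lower to 952 and 2641.

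Values below are log2 signals, and differences are in log2 with the standard error (SE) of the fit, which pools the spread of all 6 groups of 2 arrays. Different probes bind with different strength, so levels are compared only within a gene.

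In the mevalonate pathway 4 of 7 enzymes were measured, of which 1 rose and 1 fell with LPS. Fdps, which makes farnesyl diphosphate, stood at 10.17 and 10.37 on the M0 arrays and at 9.69 and 9.69 on the LPS arrays. The groups did not overlap, and the difference was -0.58 ± 0.08 (SE, n = 2 arrays a group; limma adjusted p = 0.000803). Mvd, the decarboxylase that yields isopentenyl diphosphate, was the member that rose, from 7.55 and 7.63 on the M0 arrays to 8.30 and 8.14 on the LPS arrays. Its rise of 0.63 ± 0.17 (limma adjusted p = 0.0199) did not pass when either M0 array or LPS array 1 was left out, with adjusted p-values of 0.0628 to 0.1. Hmgcs1, which makes HMG-CoA at the head of the pathway, lay at 11.94 and 11.93 in M0 and at 11.72 and 11.77 with LPS. These groups did not overlap, but the difference of -0.20 ± 0.09 did not pass (limma adjusted p = 0.147). Pmvk, the phosphomevalonate kinase, overlapped between the groups, with a difference of 0.07.

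Among the enzymes from squalene to cholesterol 8 of 10 were measured, and 4 fell with LPS while the other 4 did not pass. Sqle, squalene epoxidase, which adds the first oxygen, stood at 8.23 and 8.29 on the M0 arrays and at 6.78 and 7.07 on the LPS arrays. Both LPS arrays were well below both M0 arrays, by -1.33 ± 0.13 (SE, limma adjusted p = 0.000102). Dhcr7, the reductase of the last step, went from 7.97 and 8.02 to 7.03 and 6.82. That was a difference of -1.07 ± 0.12 (limma adjusted p = 0.00029), again with no overlap. Cyp51, lanosterol 14-demethylase, went from 8.20 and 8.01 to 7.41 and 7.24, by -0.78 ± 0.09 (limma adjusted p = 0.000317). The fall was larger than the spread between the arrays of each group.

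Lss, lanosterol synthase, which closes the ring, fell least of the 4. It stood at 8.33 and 8.37 in M0 and at 8.04 and 7.99 with LPS, a difference of -0.33 ± 0.10 (limma adjusted p = 0.0334). This call was lost when any 1 of the 4 arrays was left out (adjusted p from 0.0844 to 0.131), with no filter on dim probes (0.0583) and with the array set fitted alone (0.0931). The other enzymes of this stretch did not pass. Nsdhl, a sterol dehydrogenase, differed by -0.45 ± 0.17 (limma adjusted p = 0.0742), and passed with the replicate number as a block (0.0111). Its 3 other probes differed by 0.01, 0.28 and -0.02 and did not pass. Tm7sf2, a sterol reductase, was undetected on both LPS arrays and did not pass (limma adjusted p = 0.132). Hsd17b7 and Ebp, a ketoreductase and an isomerase of the sterol ring, differed by -0.26 and 0.19.

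Of the 5 genes of SREBP control, Scap fell and the other 4 did not pass. Scap stood at 8.31 and 8.39 on the M0 arrays and at 7.63 and 7.57 on the LPS arrays. The groups lay apart, by -0.75 ± 0.14 (SE, limma adjusted p = 0.0041). Srebf2, the SREBP gene best known for cholesterol synthesis, differed by -0.33 ± 0.16 (limma adjusted p = 0.163), and Srebf1, best known for fatty acid synthesis, by 0.03 ± 0.11 (limma adjusted p = 0.878). For Insig1 the probes disagreed. The probe of highest signal differed by 0.22 and did not pass, a further probe was 0.49 higher with LPS (limma adjusted p = 0.0336 with every kept probe tested) and the last was at -0.53 (adjusted p = 0.0555). Insig2 differed by 0.07. The sterol carrier Stard4 and the sterol-regulated membrane protein Tmem97 differed by -0.57 and -0.26, and neither passed. Tmem97 passed with no background correction, with median centring and with the authors' values (limma adjusted p = 0.0447, 0.0162 and 0.0496).

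Of 8 listed fatty acid enzymes 5 were measured, and 1 fell with LPS. The 4 that were detected in M0 and LPS cells, Fads1, Acaca, Acly and Elovl5, had differences from -0.29 to -0.07, which were negative with median centring too. Fads1, the delta-5 desaturase of polyunsaturated fatty acids, stood at 12.67 and 12.68 in M0 and at 12.42 and 12.35 with LPS, by -0.29 ± 0.08 (limma adjusted p = 0.0188). The groups did not overlap, but the call was lost without M0 array 1, M0 array 2 or LPS array 2 and with the array set fitted alone (adjusted p from 0.0651 to 0.111). Acly, which makes cytosolic acetyl-CoA from citrate, differed by -0.08 ± 0.08 (limma adjusted p = 0.47). Acaca, acetyl-CoA carboxylase, differed by -0.17 ± 0.08 (limma adjusted p = 0.144). The elongase Elovl5 differed by -0.07 and the desaturase Scd2, undetected in M0 and LPS, has no value here.

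**Figure D1:**
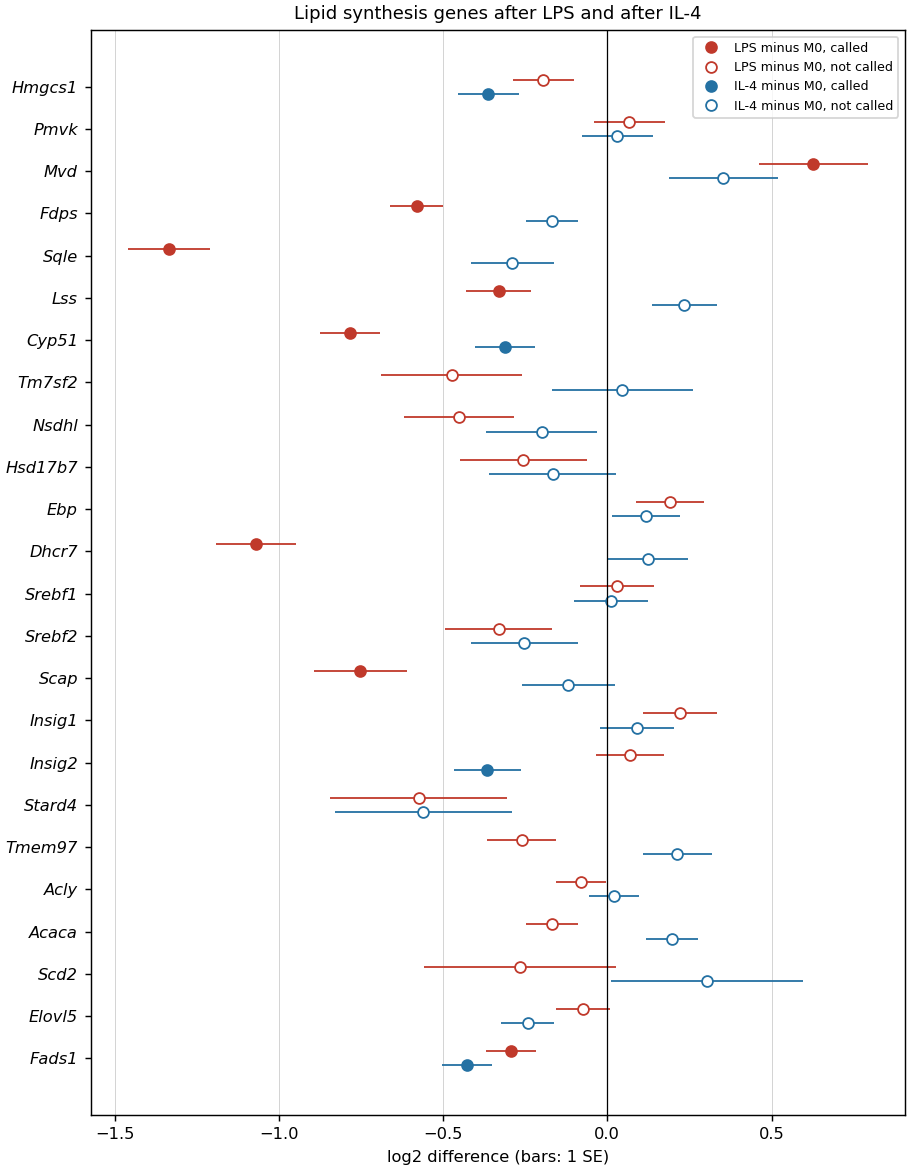
Points give the log2 difference of each of the 24 measured members for LPS minus M0 and for IL-4 minus M0, with bars of 1 SE and filled points for members at an adjusted p under 0.05. Sqle, Dhcr7, Cyp51, Scap and Fdps lie farthest to the left for LPS, from -1.33 to -0.58 among filled points, and Mvd alone is filled on the right at 0.63.

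Markers of dividing cells moved with the LPS groups. All 6 measured of 8 proliferation markers fell with LPS against M0, by a median of -1.31. Their summed signal was 9540 to 9764 on the M0 arrays and 3814 to 4227 on the LPS arrays. Ccnd1, with means of 13.02 and 11.69, was the brightest and weighs most in these sums. Of 9 measured Kupffer cell markers 5 fell and 2 rose, with summed signals of 174700 to 182000 in M0 and 106900 to 108600 with LPS. Of 6 measured T and NK cell markers 5 fell, with sums of 3768 to 4081 in M0 and 2540 to 2561 with LPS. Of 9 hepatocyte markers 1 fell, Trf, from a mean of 12.18 to 11.60, while 8 did not pass and 4 had a positive difference. Trf was the brightest of the 9 and weighs most in the hepatocyte sums of 5495 to 6025 and 3901 to 4389. Neutrophil markers had sums of 1996 to 2006 in M0 and 6773 to 7570 with LPS, and of 4 measured 2 rose, S100a8 by 4.59 log2 and Csf3r by 0.58, and 1 fell. Of 8 endothelial markers 3 rose and 3 fell, of 4 stellate cell markers 1 rose (Dcn, by 1.34), and of 2 B cell markers 1 fell. The part of these markers in the lower levels of Sqle, Dhcr7, Cyp51, Scap and Fdps was not tested.

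The next comparison set IL-4 against M0. Fads1, Hmgcs1, Insig2 and Cyp51 were 1.24-fold to 1.34-fold lower, and no member was called higher. That was 4 of 24 members lower where 11.1% of all genes fell, and 0 of 24 higher where 8.46% rose. At an unadjusted p under 0.05 limma put 2 members higher, Lss and Acaca, where 14.7% of all genes were, and 6 lower, where 19.7% of all genes were. The median difference was -0.05 for members and -0.03 for all genes. Median centring put the split over all genes at 684 higher and 1438 lower in place of 868 and 1139.

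Fads1 stood at 12.19 and 12.31 on the IL-4 arrays, below its M0 values of 12.67 and 12.68. The difference was -0.43 ± 0.08 (SE, limma adjusted p = 0.00611), and it failed to pass only, among 13 alternatives, with the array set fitted alone (0.0708). Hmgcs1 lay at 11.45 and 11.70 with IL-4 and at 11.94 and 11.93 in M0, by -0.36 ± 0.09 (limma adjusted p = 0.0262). The 2 IL-4 arrays differed from each other by about as much as the higher of them did from M0. Insig2, which holds SCAP and SREBP back, lay at 9.62 and 9.93 with IL-4 against 10.15 and 10.13 in M0, by -0.36 ± 0.10 (limma adjusted p = 0.0393). A further Insig2 probe differed by -0.06 and did not pass (adjusted p = 0.723). Cyp51 lay at 7.77 and 7.82 with IL-4 against 8.20 and 8.01, by -0.31 ± 0.09 (limma adjusted p = 0.0439).

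Fads1 passed with any 1 of the 4 arrays left out, with differences of -0.48 to -0.37. Without M0 array 1 or IL-4 array 1, Hmgcs1, Insig2 and Cyp51 did not pass, with adjusted p-values of 0.103 to 0.22. Without M0 array 2, Hmgcs1 (0.0899) and Insig2 (0.115) did not pass, and without IL-4 array 2 Cyp51 did not (0.06). Without either M0 array the differences were -0.36 and -0.37 for Hmgcs1 and -0.35 and -0.37 for Insig2, close to those with all arrays. Without IL-4 array 1 they were -0.24 and -0.21. Without IL-4 array 2, Elovl5 (0.016) and Stard4 (0.017) also fell and Lss rose (0.0346). With the M0, LPS and IL-4 set fitted alone, none of the 4 passed (0.0708 to 0.161). Sqle, the member with the largest fall after LPS, stood at 7.94 and 8.00 with IL-4, a difference of -0.29 ± 0.13 from M0 (limma adjusted p = 0.144). Dhcr7 differed from M0 by 0.13, Lss by 0.23 and Scap by -0.12, and none of these passed. Of the fatty acid genes, Acaca differed by 0.20 (limma adjusted p = 0.115) and Elovl5 by -0.24 (limma adjusted p = 0.0669). Among 6 proliferation markers 3 rose and 1 fell with IL-4, with summed signals of 16740 to 18050. Ccnd1, at 13.02 in M0 and 13.93 with IL-4, weighs most in these sums, while Plk1 was at 7.99 and 7.49. Of 6 T and NK cell markers 4 fell, of 8 endothelial markers 4 rose and 1 fell, and of 9 Kupffer cell markers 2 rose and 2 fell, with sums of 2626 to 2859, 8048 to 8937 and 186600 to 196300. The part of these markers was not tested.

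The LPS and IL-4 groups were then compared directly. Of 12 measured sterol enzymes 5 were lower with LPS than with IL-4 and 7 did not pass. Dhcr7 was 2.29-fold and Sqle 2.06-fold lower, and Insig2 was 1.35-fold higher. In all 8 of 24 members were lower with LPS and 1 was higher, where 18.4% of all genes were lower and 18.0% higher. The median was -0.09 for members and 0.01 for all genes, and with median centring it was -0.22 and -0.06 with 1368 genes higher and 2270 lower in place of 1850 and 1892.

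Dhcr7 stood at 8.04 and 8.20 on the IL-4 arrays against 7.03 and 6.82 on the LPS arrays, a difference of -1.20 ± 0.12 (SE, limma adjusted p = 0.000113). Sqle differed by -1.05 ± 0.13 (limma adjusted p = 0.000302). Both genes were clear of overlap. Lss lay at 8.70 and 8.47 with IL-4, above its LPS values of 8.04 and 7.99, by -0.56 ± 0.10 for LPS minus IL-4 (limma adjusted p = 0.0023). Scap, at 8.06 and 8.41 with IL-4, differed by -0.63 ± 0.14 (limma adjusted p = 0.00812). Each of these 4 members passed in all 13 alternatives.

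Cyp51 differed by -0.47 ± 0.09 (limma adjusted p = 0.0038), and Fdps, at 10.10 on both IL-4 arrays, by -0.41 ± 0.08 (limma adjusted p = 0.00399). Acaca, the rate-setting enzyme of fatty acid synthesis, lay at 9.58 and 9.60 with IL-4 and at 9.27 and 9.17 with LPS. Its groups did not overlap, and the difference was -0.37 ± 0.08 (limma adjusted p = 0.00695). Acaca thus passed in this comparison, while against M0 it passed with neither treatment under quantile normalisation. With median centring it passed for LPS against M0, at -0.32 (limma adjusted p = 0.0227). Tmem97 lay at 10.57 and 10.58 with IL-4 and at 10.17 and 10.03 with LPS, by -0.47 ± 0.11 (limma adjusted p = 0.00779). Its call was lost without LPS array 2 (adjusted p = 0.0527). Insig2 was 0.43 ± 0.10 higher with LPS, at 10.20 and 10.22 (limma adjusted p = 0.0111). Some members not called with all arrays differed more with an IL-4 array left out. Without IL-4 array 2, Hmgcs1 was 0.30 and Elovl5 0.27 higher with LPS. Scd2 and Tm7sf2, both undetected with LPS, then differed by -0.97 and -0.75. Without IL-4 array 1, Insig1 was 0.30 higher with LPS. The Insig2 call was lost without LPS array 2 (0.0518) and with the array set fitted alone (0.0567), and the other Insig2 probe differed by 0.26 (adjusted p = 0.0893). All 6 measured proliferation markers were also lower with LPS than with IL-4, by a median of -1.36. Of 9 Kupffer cell markers 5 were lower and 3 higher, of 8 endothelial markers 4 were lower, of 6 T and NK cell markers 2 were lower and 1 higher, and of 4 neutrophil markers 2 were higher. The part of these markers was not tested.

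**Figure D2:**
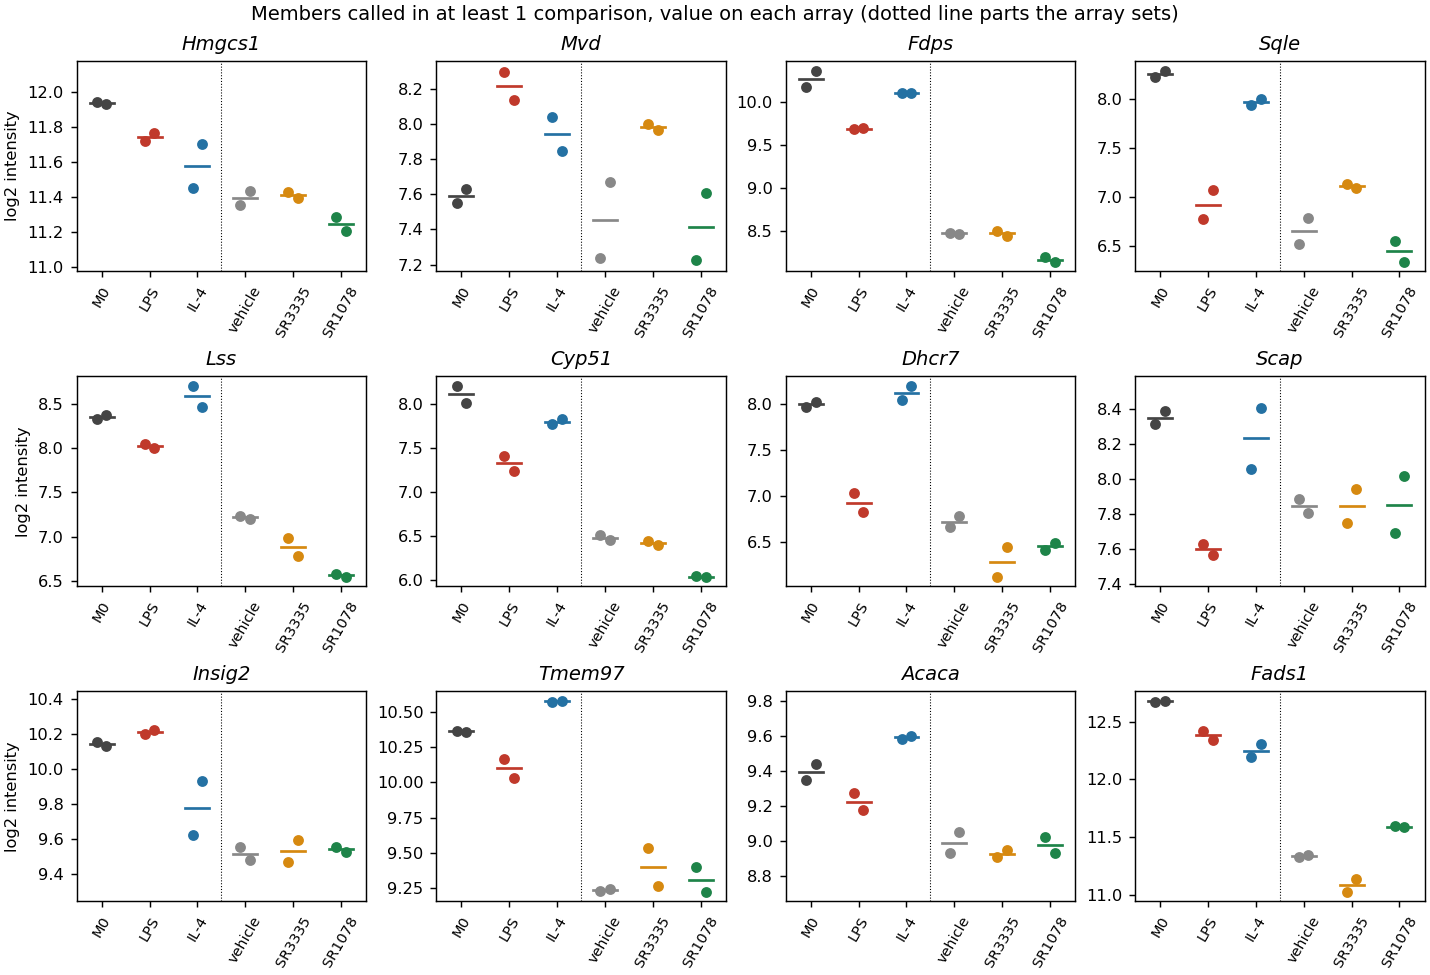
Each panel gives the log2 intensity of 1 of the 12 members called in at least 1 comparison, with a point for each array, a line at the mean of the 2 arrays of a group and a dotted line between the array sets. LPS points of Sqle, Dhcr7, Cyp51, Scap and Fdps lie below the M0 and IL-4 points, and the SR1078 points of Lss lie below the vehicle points. The axes do not start at 0 and differ between panels.

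The second question concerned the ROR ligands. With SR1078, Lss was 1.57-fold lower than with vehicle, and with SR3335 no member was called. Lss stood at 7.24 and 7.20 on the vehicle arrays and at 6.59 and 6.55 on the SR1078 arrays. The 2 groups lay apart by more than the spread within either, by -0.65 ± 0.10 (SE, limma adjusted p = 0.0204). That made 1 of 24 members lower where 0.351% of all genes were, and 0 of 24 higher where 1.05% of all genes were. The call was lost with median centring (limma adjusted p = 0.0594), where 0.205% of all genes were lower. It was also lost when any 1 of the 4 arrays was left out, where calls over all genes nearly vanished too. The difference of Lss was then -0.67 to -0.63, and it stayed between -0.67 and -0.31 in all 13 alternatives.

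At an unadjusted p under 0.05, limma put 3 members lower with SR1078 where 6.81% of all genes were, and 2 higher where 8.24% were. The other 2 lower members were Cyp51 and Fdps. Cyp51 lay at 6.51 and 6.46 with vehicle and at 6.05 and 6.04 with SR1078, by -0.44 ± 0.09 (limma adjusted p = 0.0585). It passed with the second array set fitted alone and with the stricter detection filter, at 0.0461 in both. Fdps lay at 8.47 and 8.46 with vehicle and at 8.19 and 8.14 with SR1078, by -0.31 ± 0.08 (limma adjusted p = 0.114). The groups did not overlap in 13 of the 24 members with SR1078. These 3 genes were among the 13, and so was Srebf2 (limma adjusted p = 0.78). The share over all genes was not counted. By the probe used, all 8 measured enzymes from squalene to cholesterol had a negative difference, from -0.65 to -0.05. With SR3335, set against the same vehicle arrays, 6 of the 8 had one. These counts were the same with median centring. The other Nsdhl probes differed by -0.26, 0.11 and -0.14 with SR1078 and by -0.08, 0.21 and -0.17 with SR3335. Of the 8, Lss alone passed with SR1078, and the differences of Tm7sf2, Ebp and Hsd17b7 were smaller than their SEs. With median centring the median over the 24 members turned from -0.04 to 0.01, and that over all genes from -0.00428 to 0.0139.

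The 2 members higher at an unadjusted p were enzymes of polyunsaturated fatty acids. Fads1 lay at 11.32 and 11.35 with vehicle and at 11.60 and 11.58 with SR1078, by 0.26 ± 0.08 (limma adjusted p = 0.148). Elovl5 lay at 11.95 and 11.96 with vehicle and at 12.19 on both SR1078 arrays, by 0.24 ± 0.08 (limma adjusted p = 0.196). Neither passed after adjustment.

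With SR3335 limma called 0 of 24 members higher and 0 lower, where 2.09% of all genes rose and 2.55% fell. At an unadjusted p under 0.05 it put 3 members higher and 4 lower, where 9.15% and 9.38% of all genes were. Sqle lay at 6.52 and 6.79 with vehicle and at 7.13 and 7.10 with SR3335, by 0.46 ± 0.13 (limma adjusted p = 0.0825). Mvd lay at 7.24 and 7.67 with vehicle and at 8.00 and 7.97 with SR3335, by 0.53 ± 0.17 (limma adjusted p = 0.118). The vehicle arrays of Mvd differed from each other by nearly as much. Insig1 lay at 8.40 and 8.46 with vehicle and at 8.77 and 8.86 with SR3335, by 0.38 ± 0.11 (limma adjusted p = 0.102), and its other probes differed by 0.41 and 0.13. Dhcr7 lay at 6.66 and 6.78 with vehicle and at 6.12 and 6.44 with SR3335, by -0.44 ± 0.12 (limma adjusted p = 0.0852). Lss, Fads1 and Ebp differed by -0.33, -0.25 and -0.26, with limma adjusted p-values of 0.104, 0.107 and 0.223.

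The printed doses of the 2 compounds differ, so their values against vehicle stand side by side without a test between them. Lss differed by -0.33 with SR3335 and -0.65 with SR1078, Dhcr7 by -0.44 and -0.27, Cyp51 by -0.06 and -0.44, and Fdps by -0.000153 and -0.31. Sqle differed by 0.46 and -0.21, Fads1 by -0.25 and 0.26, and Elovl5 by -0.07 and 0.24. Stard4 was undetected with both compounds and did not pass with either (limma adjusted p = 0.651 and 0.855). Of 9 measured hepatocyte markers 8 had a positive difference with each compound, none with a limma adjusted p below 0.399, with summed signals of 13900 to 15010 with vehicle, 14990 to 19410 with SR3335 and 15890 to 17980 with SR1078. Of 6 proliferation markers 2 fell with SR3335 and 1 with SR1078. With SR1078 the B cell marker Cd79b rose by 0.62 log2, with B cell sums of 452 to 516.7 with vehicle and 818.2 to 830.5 with SR1078, and of 8 endothelial markers Cdh5 rose by 0.58 and Clec4g fell by 1.05. With SR3335 the endothelial marker Stab2 fell by 0.57 and the NK cell marker Nkg7 by 0.38. The part of these markers in the values of Lss and the other members was not tested.

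**Figure D3:**
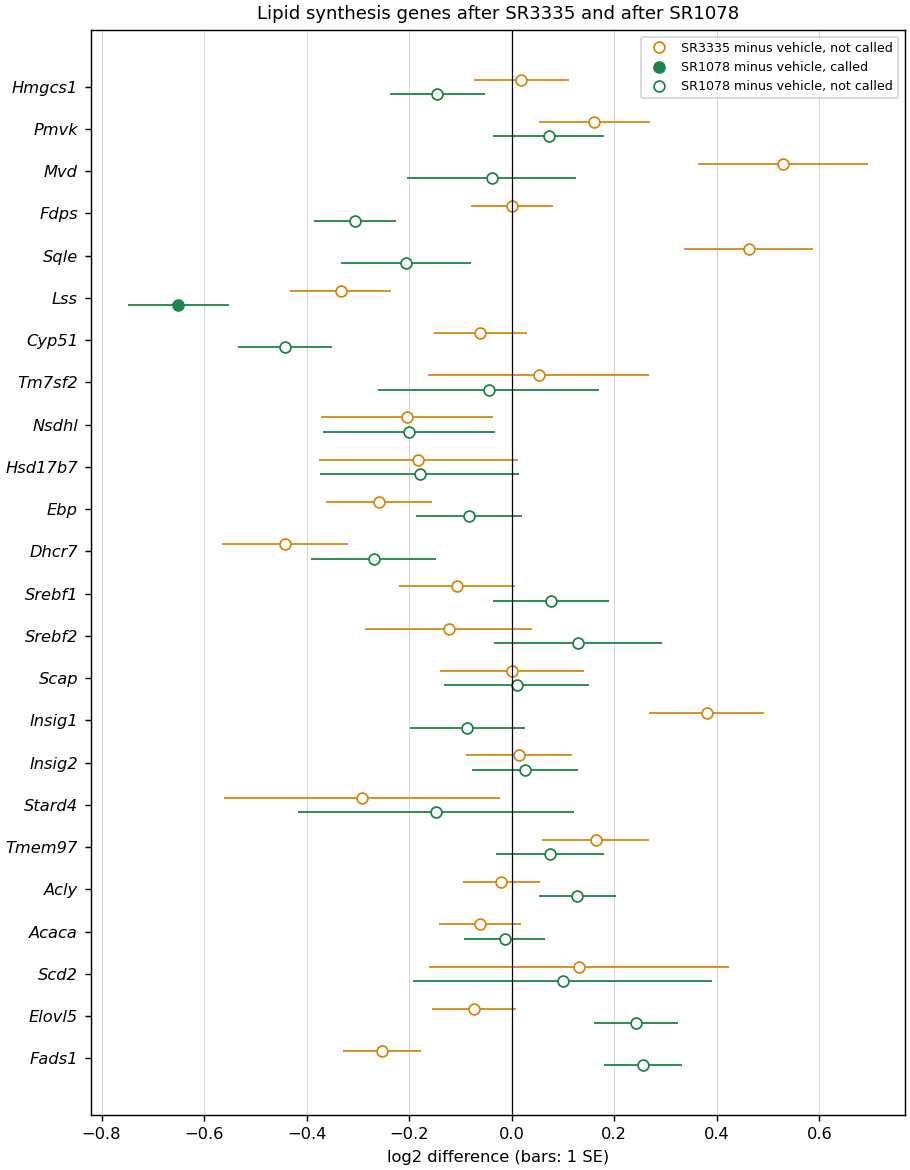
Points give the log2 difference from vehicle of each of the 24 measured members with SR3335 and with SR1078, with bars of 1 SE and filled points for members at an adjusted p under 0.05. The filled point is Lss with SR1078, at -0.65.

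Other genes of sterol and fatty acid metabolism were counted from a list of 56, of which 33 were measured. With LPS 7 rose and 8 fell against M0, where 13.5% and 16.9% of all genes did. The largest changes were in genes of sterol oxidation and fatty acid desaturation: Cyp27a1, the mitochondrial sterol 27-hydroxylase, fell by 2.20 ± 0.09 (SE), Scd1, the stearoyl-CoA desaturase, fell by 1.89 ± 0.17, and Ch25h, the cholesterol 25-hydroxylase, rose by 1.39 ± 0.15. Their limma adjusted p-values were at most 0.00018. With IL-4 2 rose and 4 fell, shares close to the 8.46% and 11.1% of all genes, with Ch25h 0.97 ± 0.15 higher, and Acsl3, an acyl-CoA synthetase, and Msmo1, a sterol demethylase, lower by -0.75 ± 0.14 and -0.49 ± 0.11. In LPS against IL-4, 5 were higher and 9 lower, where 18.0% and 18.4% of all genes were. Scd1 differed by -2.04 ± 0.17, Cyp27a1 by -1.76 ± 0.09 and Abcg1, a sterol exporter, by -1.22 ± 0.11. Lpin1, a phosphatidate phosphatase, was undetected with LPS and at least 1.64-fold lower (limma adjusted p = 0.000304).

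With SR3335 limma called 0 of the 33, with 3 higher and 4 lower at an unadjusted p under 0.05, near the 9.15% and 9.38% of all genes. With SR1078 1 rose, Hacd1 by 0.54 ± 0.10 (limma adjusted p = 0.0466), a dehydratase of fatty acid elongation. The median of the 33 genes was -0.11 with LPS and 0.01 with IL-4 against M0, -0.09 with SR3335 and -0.02 with SR1078 against vehicle.

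**Figure D4:**
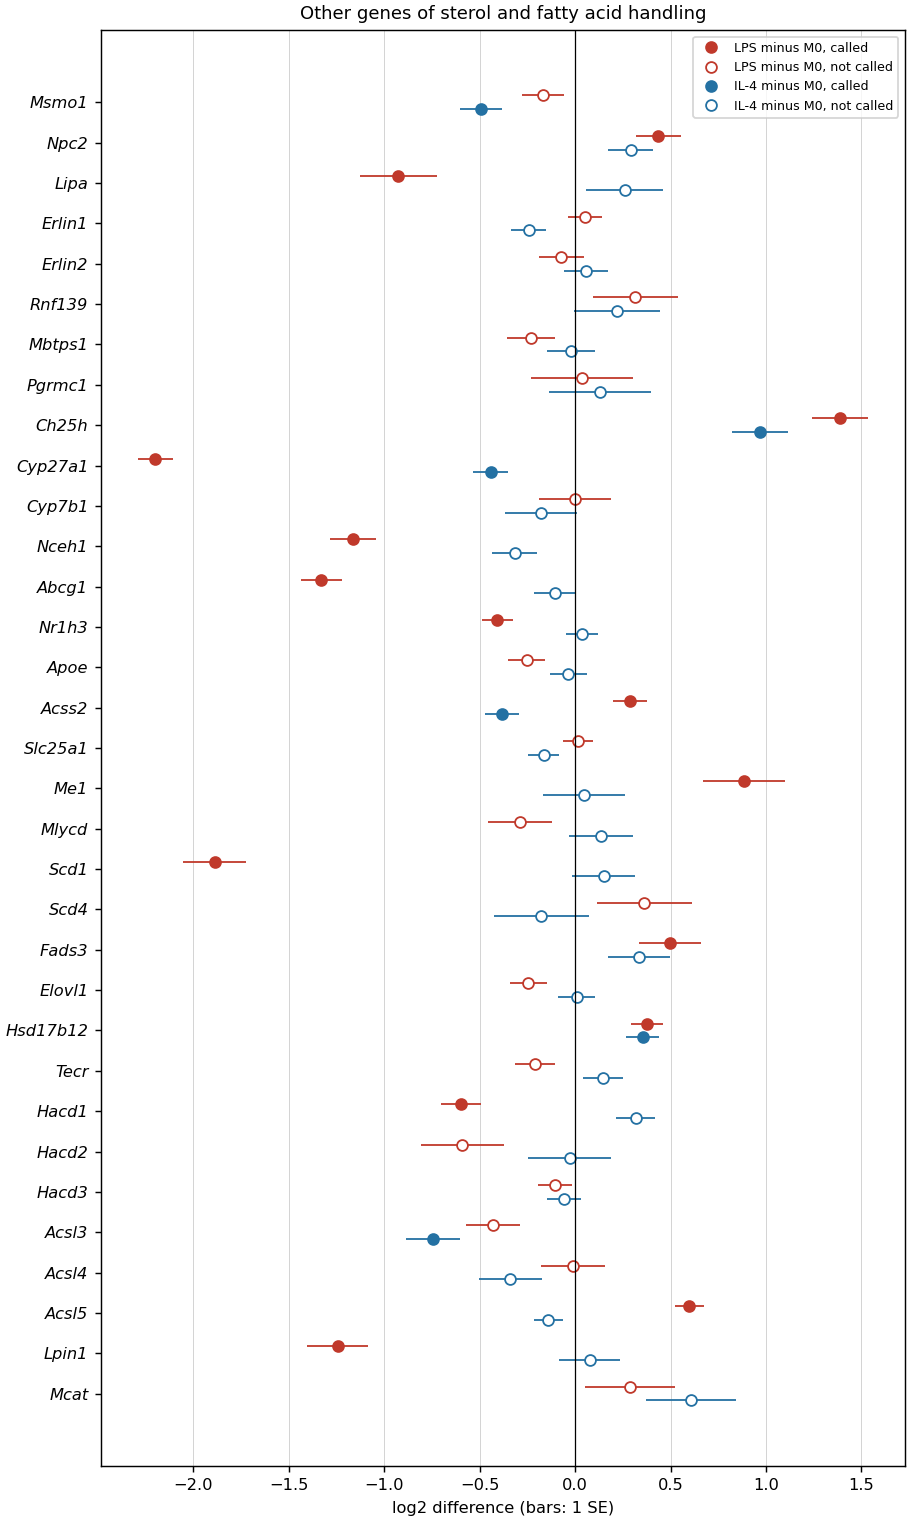
Points give the log2 difference of each of the 33 other measured genes for LPS minus M0 and for IL-4 minus M0, with bars of 1 SE and filled points at an adjusted p under 0.05. Cyp27a1 and Scd1 lie farthest to the left for LPS and Ch25h farthest to the right for both treatments.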

How the data were processed

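RNA of cultured Kupffer cells was measured on 12 Illumina bead arrays. The bead signals are intensity values, deposited with no background subtraction or normalisation and made with GenomeStudio 2011.1, per the submitters' processing notes. Beside each signal the file headers give a detection p-value, deposited by the authors. The authors' log2 values, deposited in a separate table, were quantile-normalised within each array set, as shown by 25667 of 25697 probes lying within 0.02 log2 of such a calculation, and served as an alternative. The genome build is not given in the sources used here.

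With limma 3.58.1 in R 4.3.3, signals were corrected by normexp on detection p-values (offset 16), put on the log2 scale and quantile-normalised over the 12 arrays. A probe was kept if its detection p was under 0.05 in 2 or more arrays (13678 probes), and the kept probe of highest mean stood for its gene. Of the probes, 23978 had 1 symbol and 1719 had none. A model with 1 mean per group left 6 residual degrees of freedom. Calls were made at an adjusted p under 0.05 over 10255 genes. A group of 1 array, when an array was left out, was assumed to vary like the others. The fit was tested on simulated data. For a gene undetected on both arrays of a group, a fold is a lower bound: the other group's mean over that array's lowest detected level or the probe's own. The number of arrays limits precision, and the median SE was 0.123 log2.

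All 32 listed genes were accounted for. Values per array are given for called members, and from the list of other pathway genes the 3 largest called changes per comparison among genes detected in both groups, with Lpin1 besides as a bound. Members not called but under an unadjusted p of 0.05 with the compounds are named besides, a choice made after their values were seen. The members and lists were chosen with earlier results of these data known. Alternatives changed the background correction, normalisation, source of values, filter, probe choice and arrays fitted, added a block for the replicate number, or omitted 1 array. Promoter sequences are RefSeq's, and figures used Python 3.11.15, matplotlib 3.10.9 and pandas 2.3.3.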

Additional observations from a re-analysis of the deposited data

How the results depend on the processing

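No called difference of a single member changed sign under an alternative. With 1 array left out 447 kept their side of the threshold, 25 lost it and 8 gained it, and under the other alternatives 1039 kept it, 13 lost it and 18 gained it. Calls that passed in all 13 alternatives numbered 5 of 8 for LPS against M0 (Fdps, Sqle, Cyp51, Dhcr7 and Scap), 7 of 9 for LPS against IL-4, 0 of 4 for IL-4 against M0 and 0 of 1 for SR1078. Median centring put 12 members lower with LPS in place of 7, where genes lower went from 16.9% to 25.8%. It put 0 lower with SR1078 in place of 1, where genes lower went from 0.351% to 0.205%. Fitting the array set alone gave 0 lower with IL-4 in place of 4, where genes lower went from 11.1% to 3.81%. It gave 0 higher for LPS against IL-4 in place of 1, where genes higher went from 18.0% to 11.4%. With SR1078 it gave 2 lower in place of 1, where genes lower went from 0.351% to 0.41%. With SR3335 it gave 1 higher in place of 0, where genes higher went from 2.09% to 3.11%. With no filter on dim probes 2 members were lower with IL-4, where 5.1% of genes were. With detection on at least 6 arrays 2 were lower with SR1078, where 0.617% of genes were. For SR3335, no background correction gave 1 member higher, where 3.86% of genes were. The authors' values gave 2 higher and 1 lower, where 4.85% and 4.4% of genes were.

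With each array left out in turn, members lower and higher numbered 5 to 6 and 0 to 1 for LPS against M0, 1 to 5 and 0 to 1 for IL-4 against M0, and 7 to 10 and 0 to 3 for LPS against IL-4. Calls over all genes became fewer for LPS against M0 too, and for IL-4 against M0 except without IL-4 array 2. For SR3335 and SR1078 they became far fewer over all genes, and the loss among members went with that. The replicate numbers did not pair the arrays: within a set the deviations of same-numbered arrays correlated at -0.0167 to 0.0968 across genes, and the labels do not say what a number marks. With the replicate block, 8 members fell with LPS against M0, Nsdhl being added, and the other counts were those without it. The cause of these changes was not tested. With 2 arrays a group, the smallest difference of a called member was -0.29 log2, and genes near background have only bounds.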

Other observations

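Levels were set side by side across the array sets, where set and group cannot be told apart. Both vehicle arrays lay below both M0 arrays for 19 of the 24 members and above them for 1, Insig1, while 4 overlapped. Over all 10255 genes 45.2% were below and 38.2% above. The mean of Fdps was 10.27 in M0 and 8.47 with vehicle, that of Cyp51 8.11 and 6.49, and that of Sqle 8.26 and 6.65. Insig1 was at 7.74 in M0 and 8.43 with vehicle by the probe used, and its other probes disagreed with each other. A further probe was higher with vehicle too, at 7.04 and 6.70 on the M0 arrays and at 8.07 and 8.29 on the vehicle arrays. The last overlapped, at 7.72 and 7.52 and at 7.64 and 7.24. Summed hepatocyte marker signal was 5495 to 6025 on the M0 arrays and 13900 to 15010 on the vehicle arrays. Trf, the brightest of these markers in M0, had means of 12.18 in M0 and 11.55 with vehicle. Ttr had means of 7.94 and 11.67, Apoa1 7.02 and 10.52, Serpina1b 8.90 and 11.95, and Hnf4a 6.45 and 6.61. The part of hepatocyte RNA was not tested.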
